A study of Mus with 12 samples.

Results

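The genes for the steroid hormone receptors of the mouse uterus, and for the cochaperone Fkbp5, were followed through pregnancy in RNA-seq of whole uteri. The 9 genes were Pgr, Esr1, Esr2, Nr3c1, Nr3c2, Gper1, Pgrmc1, Pgrmc2 and Fkbp5. They were chosen by name, as the row of each deposited table that carries the gene's symbol and at least 1 Ensembl transcript, and all 9 were found among the 87235 rows of the implantation table and the 40787 rows of the labor table. Assembled rows that carry only the name, without such a transcript, exist for 6 of the 9 genes in the implantation table and for 3 in the labor table, Esr1, Nr3c1 and Nr3c2, and were not added to them. The uteri came from 12 pregnant ICR mice, an outbred strain, aged 8 weeks, with 3 mice at each of 4 times after mating. E0.5 and E4.5 formed the implantation stage and E15.5 with E18.5 the labor stage. All mice were untreated as far as the labels say, each library came from 1 mouse, and the animals of different days were different mice. The comparison at each stage set E0.5 against E4.5 and E18.5 against E15.5. The first day of each pair is taken as the day with less progesterone, from the study's account of pregnancy. No progesterone values of these mice are given in the sources used here. Values are FPKM, the fragments of a transcript divided by its length and by the mapped reads of the library. The 2 stages were assembled and normalized separately, so a level of one stage was not tested against a level of the other.

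Steroid hormones act mainly through nuclear receptors, which wait in the cell bound to the chaperone Hsp90 and its partners and, once they have bound hormone, switch genes on or off. Pgr encodes the progesterone receptor, which prepares the uterus for the embryo and keeps the myometrium quiet. Esr1 and Esr2 encode the estrogen receptors alpha and beta, of which alpha is the main form in the uterus and beta is best known from ovarian granulosa cells. Nr3c1 and Nr3c2 encode the glucocorticoid and mineralocorticoid receptors. Gper1 is a membrane estrogen receptor, and Pgrmc1 and Pgrmc2 are membrane proteins that bind heme and have been linked to progesterone responses. Fkbp5 encodes FKBP51, an Hsp90 cochaperone that lowers the hormone binding of glucocorticoid and progesterone receptors and is itself induced by these hormones. Its close relative Fkbp4 encodes FKBP52, which raises the activity of the same receptors and is needed for implantation in mice.

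A library of each stage stood apart from the others, and some results rested on it. The library of E4.5 replicate 3 held all 9 ovary markers at 1 FPKM or more, with a summed level of 1366 FPKM, against 7.66 to 10.6 FPKM in the other 5 libraries of the implantation stage. Cyp11a1, the enzyme that starts steroid synthesis, was at 378 FPKM there and at 0.0513 to 0.951 FPKM in the others, and the defining granulosa cell genes Fshr and Cyp19a1, at 3.63 and 1.79 FPKM there, were at 0 in all 5 others. Its 7 smooth muscle markers summed to 206 FPKM, against 798 to 1214 FPKM in the others. Its Spearman correlations with the other E4.5 libraries were 0.643 and 0.619, against 0.763 to 0.830 for the other same-day pairs of the implantation stage. The fold changes of the implantation stage are therefore also given without this library. The total count per library lay between 58020989 and 70906881 reads at the implantation stage, and the depth is unknown at the labor stage. In the labor table E15.5 replicate 1 had Spearman correlations of 0.856 and 0.884 with the other E15.5 libraries, against 0.915 to 0.937 for the other same-day pairs, and 35 rows passed the adjusted p without it against 13 with it. Smooth muscle, epithelium and stroma markers were present in every library. In E4.5 replicate 3 the epithelium, stroma and decidua markers summed to 77.3, 222 and 27.7 FPKM. The other 5 libraries of the implantation stage had 116 to 270, 339 to 662 and 126 to 190 FPKM. In the labor table the epithelium markers summed to 202 to 450 FPKM at E15.5 against 655 to 911 FPKM at E18.5, and the 8 trophoblast and placenta markers to 3.96 to 35.0 and 46.9 to 89.1 FPKM. The part of these cell types in the results was not tested. In whole tissue, fewer cells of a type and less RNA per cell cannot be told apart.

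Pgrmc1 had the highest level of the 9 genes on all 4 days, and Esr2 was near 0 in 11 of the 12 libraries. At E0.5 the mean levels were 39.1 ± 6.85 FPKM (SD, n = 3) for Pgrmc1, 13.4 ± 3.26 for Esr1, 9.21 ± 1.28 for Pgrmc2, 4.79 ± 1.61 for Pgr and 4.55 ± 0.734 for Nr3c1. Gper1 followed with 1.36 ± 0.606 FPKM, Nr3c2 with 0.927 ± 0.219 and Fkbp5 with 0.761 ± 0.214. The ranges of neighbours in this order overlapped for Esr1 and Pgrmc2, for Pgr and Nr3c1, and among Gper1, Nr3c2 and Fkbp5. At E18.5 the order was Pgrmc1 with 53.5 ± 1.98 FPKM (SD, n = 3), Esr1 with 28.0 ± 3.74, Nr3c1 with 11.9 ± 1.51, Pgrmc2 with 9.41 ± 0.433, Pgr with 7.26 ± 0.790 and Fkbp5 with 3.93 ± 0.975. Nr3c2 with 1.11 ± 0.367 FPKM and Gper1 with 0.584 ± 0.307 came last before Esr2, and theirs were the only neighbouring ranges at E18.5 that overlapped. E15.5 had the same order of means as E18.5, with overlapping ranges for Nr3c1 and Pgrmc2.

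**Figure D1:**
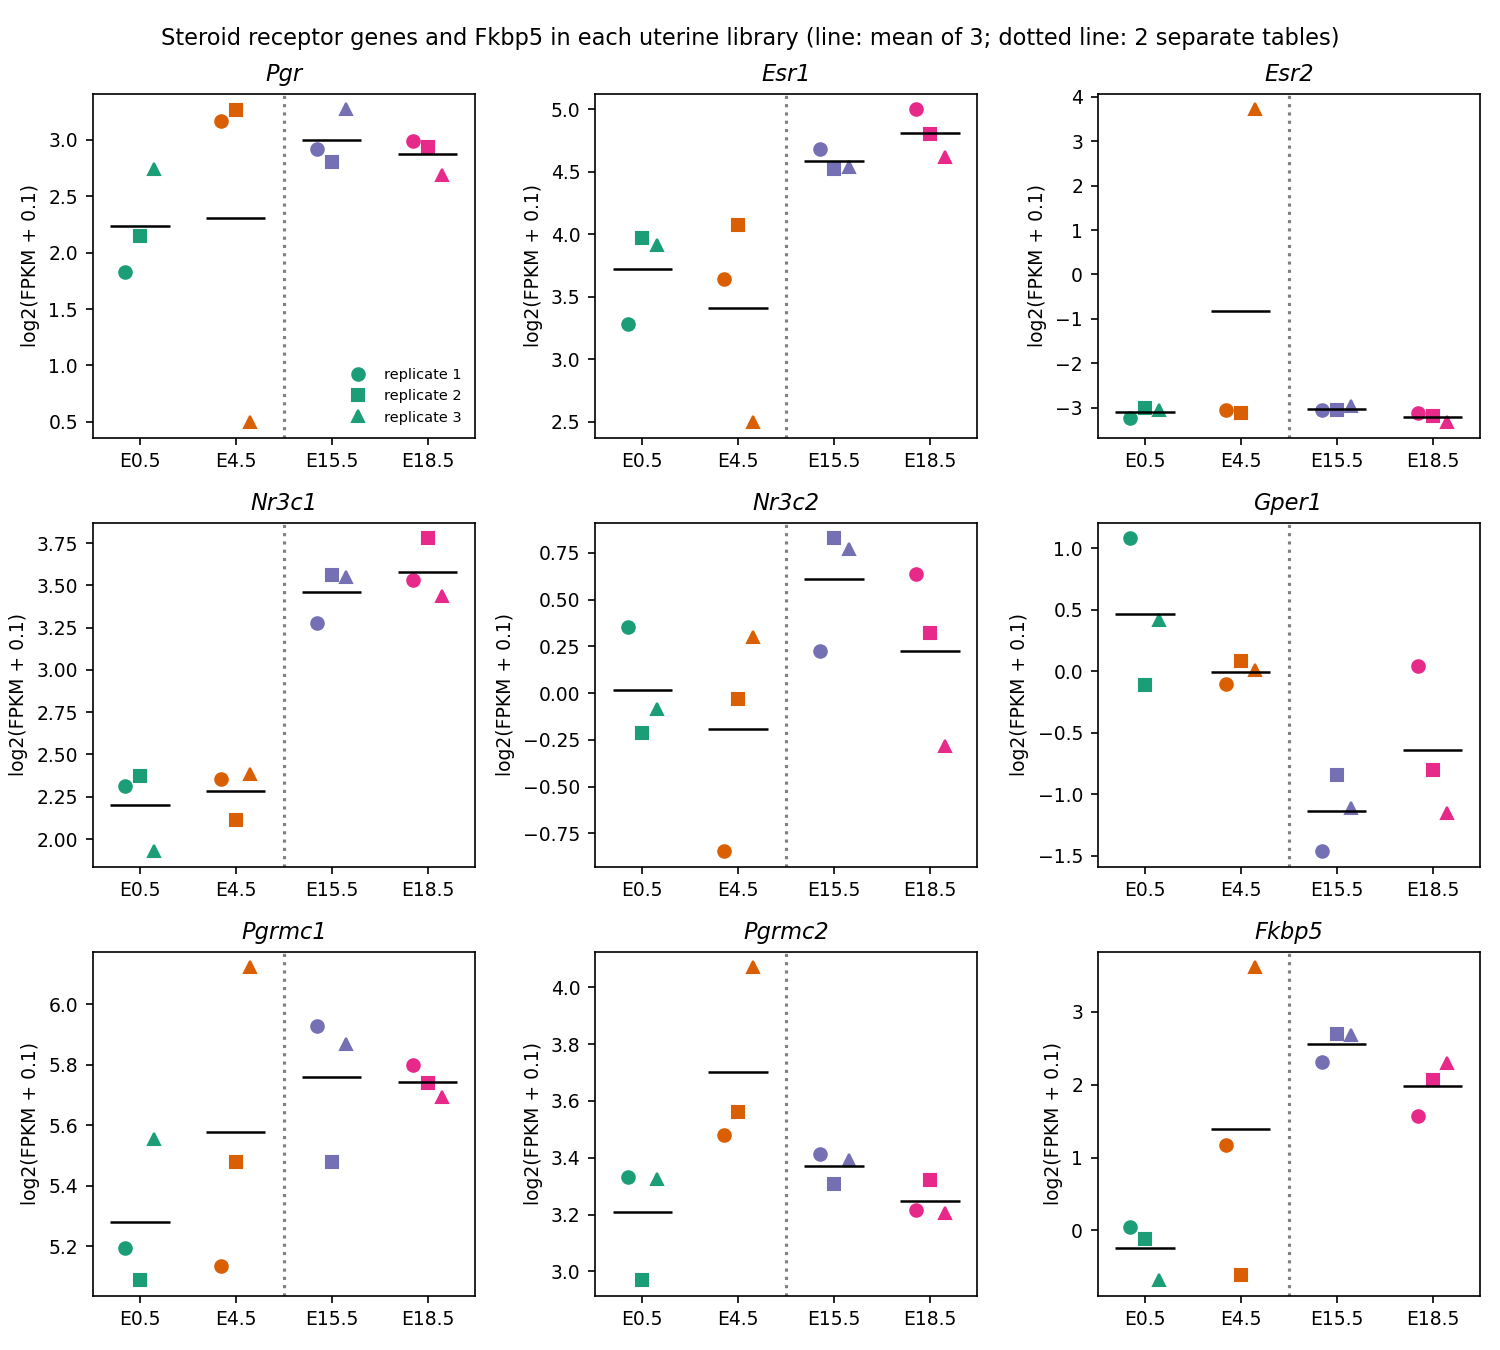
Level of each of the 9 genes in each library, on the scale log2(FPKM + 0.1), with 1 panel per gene, the 4 days on the x axis, 1 point per mouse and a line at the mean of 3. The point of E4.5 replicate 3 lies below the other E4.5 points for Pgr and Esr1 and above them for Esr2, Fkbp5, Pgrmc1, Pgrmc2, Nr3c1 and Nr3c2, and the y axes differ between panels.

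The progesterone receptor gene Pgr lies on chromosome 9 from 8899833 to 8968611 on the plus strand, as the implantation table gives it. It had 3.45, 4.34 and 6.58 FPKM in the 3 libraries of E0.5 and 8.86, 9.52 and 1.31 FPKM in those of E4.5. Replicates 1 and 2 of E4.5 lay above all E0.5 libraries, and replicate 3, the library with ovary markers, lay below all of them. Over all 6 libraries Pgr differed by a log2 fold change of -0.44 (standard error, SE, 0.68, unadjusted p = 0.536, adjusted p = 0.780, edgeR), so that E0.5 and E4.5 could not be separated. Without E4.5 replicate 3 the log2 fold change was -0.93 (SE 0.26, 95% interval -1.56 to -0.30), a 1.91-fold lower level at E0.5 with unadjusted p = 0.0102 and adjusted p = 0.0932 by edgeR. DESeq2 on the same 5 libraries gave -0.93 with an adjusted p of 0.0229. The groups then did not overlap, with a separation in this direction for 21.2% of all tested rows in these 5 libraries, and the fold change stayed under the study's minimum of 1 on the log2 scale.

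The estrogen receptor alpha gene Esr1 spans chromosome 10 from 4611593 to 5003761 on the plus strand. Its levels were 9.62, 15.54 and 14.95 FPKM at E0.5 against 12.4, 16.8 and 5.54 FPKM at E4.5. The lowest of the 6 values was again that of E4.5 replicate 3, and the other 5 values of the 2 days overlapped. The log2 fold change of Esr1 was 0.23 (SE 0.42, adjusted p = 0.819, edgeR) over all libraries and -0.11 (95% interval -0.69 to 0.47) without that library. Further assembled rows named for Esr1, which were not added to it, hold 62.5% as many reads as this row. The interval without replicate 3 lies within the study's minimum of 1 in both directions.

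The estrogen receptor beta gene Esr2, on chromosome 12 from 76120419 to 76177259 on the minus strand, showed how much 1 library could carry. In the 3 libraries of E0.5 it had 19, 59 and 58 reads, or 0.00658 to 0.0253 FPKM. At E4.5 it had 57 and 39 reads in replicates 1 and 2, and 32962 reads or 13.1 FPKM in replicate 3. Esr2 and the 9 ovary markers were thus high in the same library. The row also carries the name Gm7862, and its reads cannot be assigned to one of the 2 genes. With all libraries Esr2 was lower at E0.5 by a log2 fold change of -7.85 (SE 2.76, 95% interval -14.4 to -1.28, unadjusted p = 0.0257, adjusted p = 0.215, edgeR). DESeq2 gave no p for this row, and limma on log2(FPKM + 0.1) gave a log2 fold change of -2.28 (unadjusted p = 0.243). Without E4.5 replicate 3 Esr2 was under the filter on low values, and with no filter the log2 fold change was -0.03 (95% interval -1.69 to 1.63, adjusted p = 0.989).

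**Figure D2:**
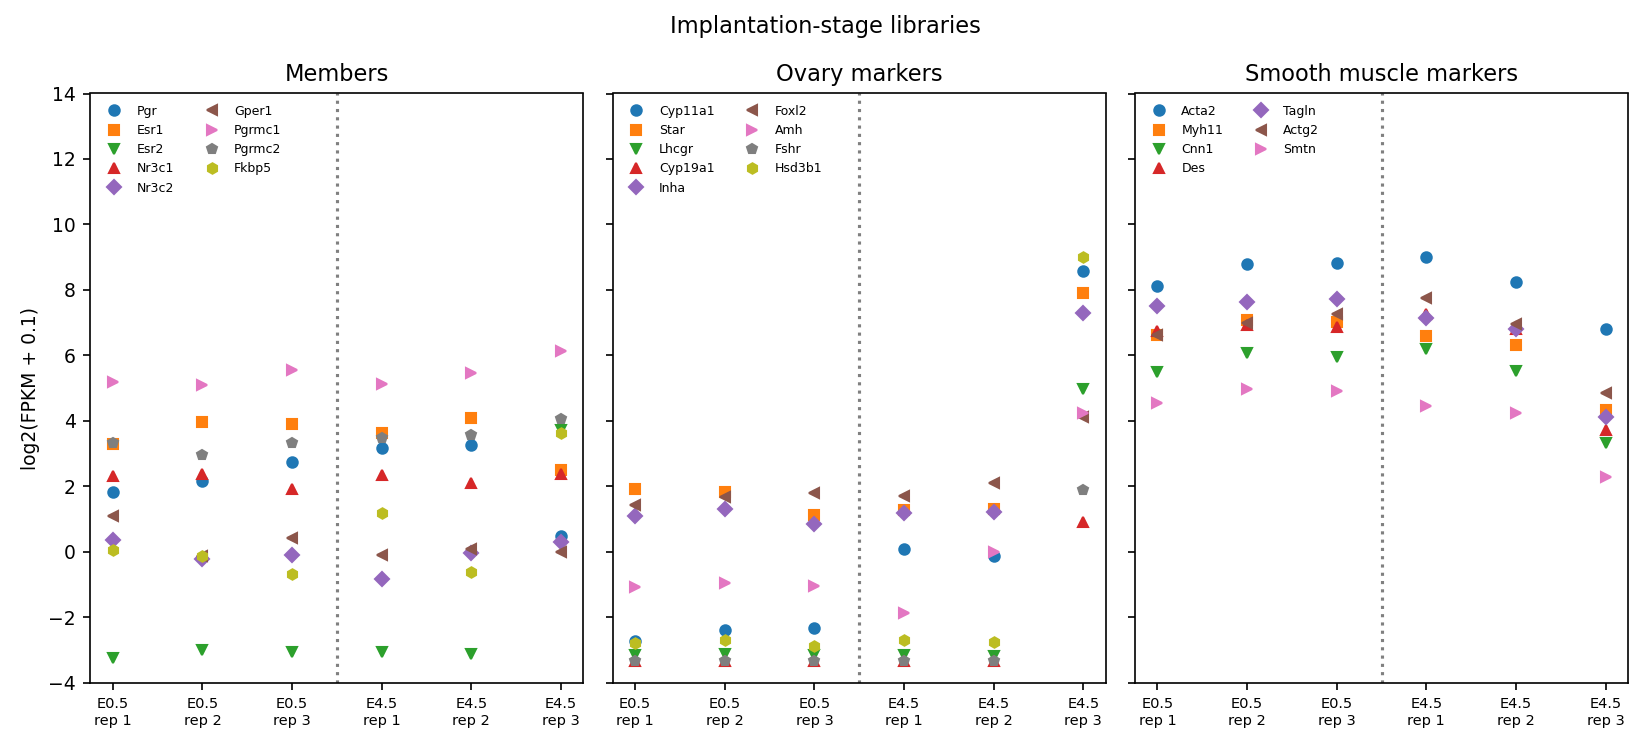
Levels in the 6 libraries of the implantation stage as log2(FPKM + 0.1), with 1 point per gene and library, for the 9 genes, for 9 ovary markers and for 7 smooth muscle markers. In E4.5 replicate 3 the ovary markers, Esr2 and Fkbp5 are at their highest and the smooth muscle markers, Pgr and Esr1 at their lowest of the 6 libraries.

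The corticosteroid receptor genes passed no threshold between the days of implantation. Nr3c1, the glucocorticoid receptor, had 4.86, 5.07 and 3.71 FPKM at E0.5 against 5.03, 4.22 and 5.12 FPKM at E4.5. The values of both days were interleaved, E4.5 replicate 3 included, and the log2 fold change was -0.06 (SE 0.19, 95% interval -0.50 to 0.39, adjusted p = 0.909, edgeR), and -0.02 without that library. Nr3c2, the mineralocorticoid receptor, had 1.18, 0.762 and 0.843 FPKM at E0.5 against 0.457, 0.878 and 1.13 FPKM at E4.5. These values overlapped as well, with a log2 fold change of 0.20 (SE 0.35, adjusted p = 0.812, edgeR) over all libraries and 0.49 (adjusted p = 0.454) without E4.5 replicate 3. Assembled rows named for Nr3c2, not added here, hold 244% of the reads of its row.

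Among the membrane proteins, only Pgrmc2 had values at E0.5 that lay below all values at E4.5. It had 9.97, 7.73 and 9.91 FPKM at E0.5 against 11.1, 11.7 and 16.7 FPKM at E4.5, with a log2 fold change of -0.49 (SE 0.21, unadjusted p = 0.0515, adjusted p = 0.287, edgeR). Non-overlapping groups occurred in 25.8% of all tested rows, so 1 of 9 genes was no more than the background share. The log2 fold change of Pgrmc2 was -0.30 when E4.5 replicate 3 was left out (adjusted p = 0.354). Pgrmc1, the more abundant of the pair, had 36.6, 33.9 and 46.9 FPKM at E0.5 against 35.1, 44.5 and 69.6 FPKM at E4.5. Its log2 fold change was -0.31 (adjusted p = 0.593, edgeR) with the library of 69.6 FPKM, E4.5 replicate 3, and -0.01 (95% interval -0.45 to 0.43) without it. Gper1 had 2.02, 0.823 and 1.24 FPKM at E0.5 against 0.830, 0.960 and 0.905 FPKM at E4.5, with a log2 fold change of 0.61 (SE 0.35, adjusted p = 0.409, edgeR). Replicates 1 and 3 of E0.5 lay above all E4.5 values, and replicate 2 below them. The log2 fold change of Gper1 was 0.60 without E4.5 replicate 3, 0.24 without E0.5 replicate 1 and 0.87 (unadjusted p = 0.0367, edgeR) without E0.5 replicate 2.

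Fkbp5, on chromosome 17 from 28398316 to 28517524 on the minus strand, was the gene with the most uneven values relative to its mean among the E4.5 libraries after Esr2. It had 0.936, 0.824 and 0.523 FPKM at E0.5 against 2.15, 0.554 and 12.2 FPKM at E4.5. The highest value was that of E4.5 replicate 3, and replicate 2 of E4.5 fell within the range of E0.5. Over all libraries Fkbp5 was 6.32-fold lower at E0.5, with a log2 fold change of -2.66 (SE 1.01, 95% interval -5.06 to -0.25, unadjusted p = 0.0348, adjusted p = 0.244, edgeR). Limma on log2(FPKM + 0.1) gave a 3.11-fold difference on the same libraries (log2 fold change -1.64, unadjusted p = 0.134), past no threshold, and the replicate block a log2 fold change of -1.60. DESeq2 gave an adjusted p of 0.0241, and adjusted p-values over the 15 alternatives ran from 0.0241 to 0.584. Without E0.5 replicate 1, 2 or 3 the log2 fold change stayed at -2.81, -2.73 and -2.45, while the unadjusted p, with 1 library fewer, was 0.0804, 0.0862 and 0.106. Without E4.5 replicate 3 the difference was 1.81-fold (log2 fold change -0.85, unadjusted p = 0.167, adjusted p = 0.428).

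By the study's criterion, which asks for 1 or more in absolute log2 fold change together with an unadjusted p below 0.05, 2 of the 9 genes were lower at E0.5 than at E4.5, Esr2 and Fkbp5. The criterion was met by 12.1% of all 52738 tested rows, 5.98% in this direction and 6.13% in the other. None of the 9 passed an adjusted p of 0.05 by edgeR, against 1.4% of all rows, although 2 of 9 had an unadjusted p under 0.05, against 17.6% of rows, and DESeq2 passed 1, Fkbp5, against 10% of rows. Without E4.5 replicate 3 none met the criterion, against 14.2% of rows, none passed the adjusted p of edgeR, against 6.86%, and 1 of the 8 tested, Pgr, had an unadjusted p under 0.05 by edgeR, against 22% of rows. DESeq2 passed Pgr in these 5 libraries, as it did 15.1% of rows. The median log2 fold change of the 9 genes was -0.31 beside -0.03 for all rows, and -0.07 for 8 genes beside 0.04 without that library.

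**Figure D3:**
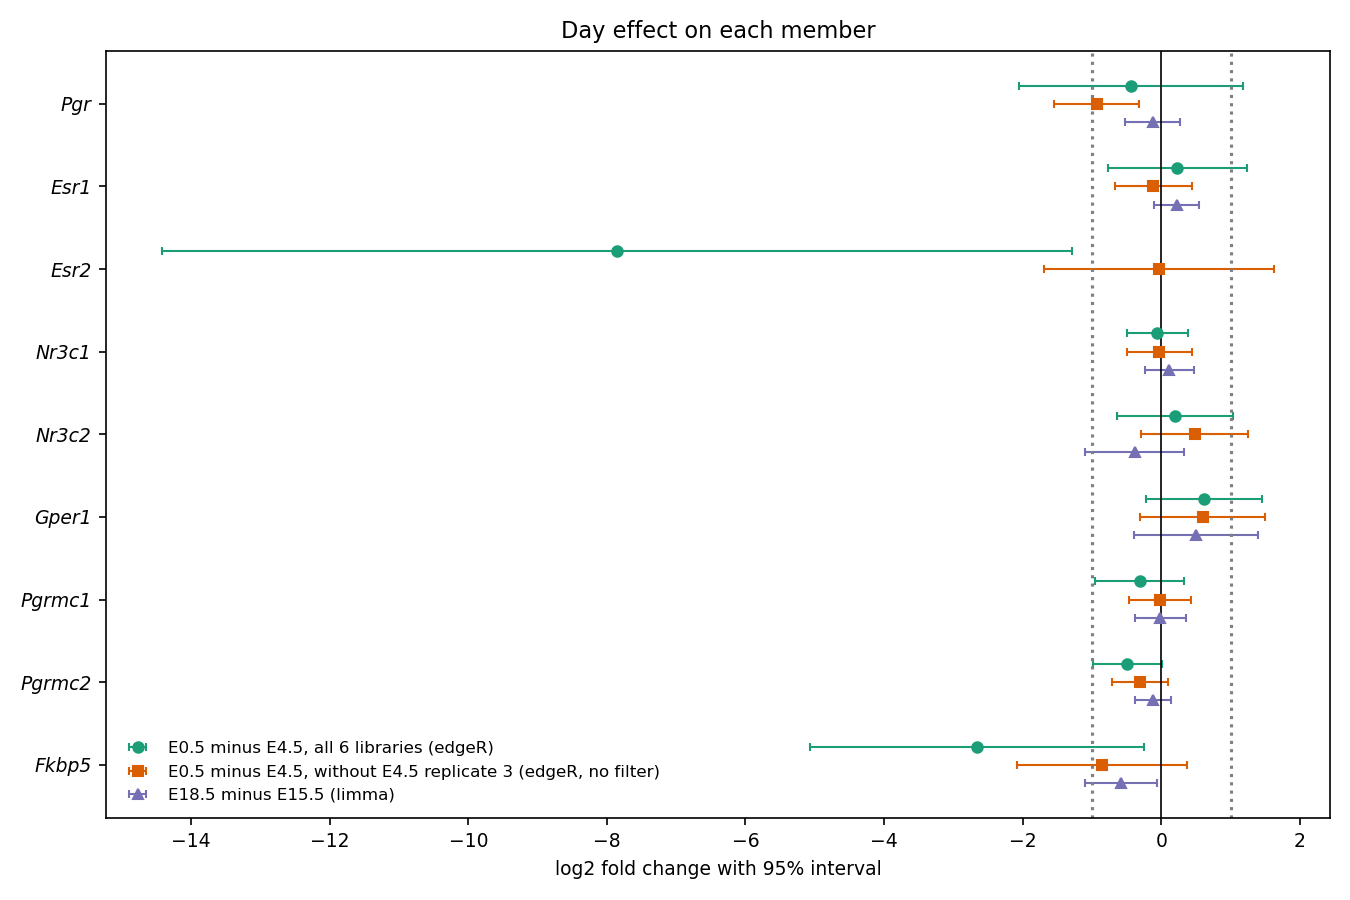
Log2 fold change of each gene with its 95% interval, for E0.5 minus E4.5 with all 6 libraries, for the same comparison without E4.5 replicate 3 and with no filter, and for E18.5 minus E15.5. Dotted lines mark the study's minimum of 1, and Esr2 moves from -7.85 to -0.03 and Fkbp5 from -2.66 to -0.85 when 1 library is left out.

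Between E15.5 and E18.5 none of the 8 tested genes met the study's criterion, which 5.6% of all 29597 tested rows met, and none passed the adjusted p of 0.05, which 0.0439% of rows passed. The test was limma, and 1 of the 8, Fkbp5, had an unadjusted p under 0.05, against 12% of rows. The fold changes of all 8 were under 2-fold, with a median log2 fold change of -0.07 beside 0.02 for all rows. Esr2 was under the filter, with 0.0200, 0.0207 and 0.0285 FPKM at E15.5 against 0.0155, 0.00992 and 0 FPKM at E18.5.

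Fkbp5 had 4.88, 6.37 and 6.32 FPKM at E15.5 against 2.88, 4.09 and 4.81 FPKM at E18.5. All 3 values of E18.5 lay below those of E15.5, by a narrow gap, and 8.79% of all rows were separated in this direction. The log2 fold change was -0.58 on the scale of log2(FPKM + 0.1) (SE 0.22, 95% interval -1.10 to -0.07, unadjusted p = 0.0320, adjusted p = 0.365, limma). The direction was the same with each library left out, with log2 fold changes from -0.74 to -0.38, and was -0.71 (adjusted p = 0.364) without E15.5 replicate 1. Without that library none of the 8 genes met the criterion either. The log2 fold change of Fkbp5 was thus negative for E0.5 against E4.5 and for E18.5 against E15.5. The adjusted p-values were 0.244 by edgeR and 0.365 by limma. Without E4.5 replicate 3 the implantation value was -0.85 (unadjusted p = 0.167, edgeR). The part of progesterone in these values was not tested.

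The nuclear receptors passed no threshold at the labor stage. Pgr, in a row that also carries the name Gm16485, had 7.48, 6.87 and 9.56 FPKM at E15.5 against 7.86, 7.54 and 6.36 FPKM at E18.5. These ranges overlapped and the log2 fold change was -0.13 (95% interval -0.52 to 0.27, adjusted p = 0.789, limma). Esr1 had 25.6, 22.9 and 23.1 FPKM at E15.5 against 31.9, 27.7 and 24.4 FPKM at E18.5, with only the lowest E18.5 value inside the E15.5 range, and a log2 fold change of 0.22 (95% interval -0.10 to 0.55, adjusted p = 0.561, limma). Nr3c1 had 9.58, 11.7 and 11.6 FPKM at E15.5 against 11.4, 13.6 and 10.7 FPKM at E18.5, a log2 fold change of 0.12 (95% interval -0.23 to 0.47, adjusted p = 0.770, limma). For Pgr, Esr1 and Nr3c1 the intervals exclude a change of 2-fold in either direction.

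The scarcer genes were measured less precisely. Nr3c2 had 1.07, 1.68 and 1.60 FPKM at E15.5 against 1.45, 1.15 and 0.722 FPKM at E18.5, with an interval of the log2 fold change from -1.09 to 0.33. Gper1 had 0.263, 0.458 and 0.362 FPKM at E15.5 against 0.932, 0.472 and 0.349 FPKM at E18.5, with an interval from -0.40 to 1.40. For both genes the values of the 2 days overlapped, and a 2-fold change lay within the interval. Pgrmc1, at 60.8, 44.5 and 58.3 FPKM and then 55.6, 53.4 and 51.6 FPKM, had a log2 fold change of -0.02 (SE 0.16). Pgrmc2, at 10.5, 9.79 and 10.4 FPKM and then 9.19, 9.91 and 9.13 FPKM, had a log2 fold change of -0.12 (SE 0.11). The 95% intervals of both genes included 0.

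Whether the day effects differed between the stages was tested with limma on log2(FPKM + 0.1) over the 12 libraries, for the 8 genes past the filter, without Esr2. The difference is that of the limma effects of both stages, and for implantation these are not the edgeR values given above. None passed the criterion or the adjusted p by limma, against 11.9% and 2.7% of the 21397 tested rows, and none had an unadjusted p under 0.05, against 18.2%. For Fkbp5 the limma effects were -1.64 at implantation and -0.58 at labor, and the difference was -1.06 (95% interval -3.45 to 1.34, adjusted p = 0.654). It was 0.06 without E4.5 replicate 3 and -2.06 without E4.5 replicate 2 (unadjusted p = 0.0210), so the difference depended on which E4.5 library was present. The limma effects of Pgr were -0.07 and -0.13, against -0.44 by edgeR at implantation, and the difference was 0.06 (95% interval -1.76 to 1.87) and, without E4.5 replicate 3, -0.85 (95% interval -1.59 to -0.11, unadjusted p = 0.0275, adjusted p = 0.166). The median difference over all tested rows was -0.14.

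Ratios within a library do not depend on how libraries were scaled. The ratio of Pgr to Esr1 was 0.359, 0.279 and 0.440 at E0.5 and 0.714, 0.568 and 0.237 at E4.5. Replicates 1 and 2 of E4.5 lay above all of E0.5, and replicate 3 below all of them. Later in pregnancy the ratio was 0.292, 0.3003 and 0.413 at E15.5 and 0.247, 0.272 and 0.261 at E18.5. All 3 values were lower at E18.5, but the nearest values of the groups differed by less than the spread within E15.5. No test was made of these ratios.

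The ratio of Fkbp5 to Fkbp4, the inhibiting to the activating cochaperone, was 0.0365, 0.0370 and 0.0247 at E0.5 and 0.0563, 0.0141 and 0.434 at E4.5. The E4.5 values lay on both sides of the E0.5 values, with the outlying value again in replicate 3. Near term it was 0.425, 0.233 and 0.197 at E15.5 and 0.0709, 0.121 and 0.153 at E18.5. Fkbp4 itself had 11.5, 27.3 and 32.1 FPKM at E15.5 against 40.7, 33.8 and 31.5 FPKM at E18.5, which overlapped, and the log2 fold change was 0.70 (adjusted p = 0.50, limma), or 0.25 without E15.5 replicate 1. E15.5 replicate 1, with the lowest Fkbp4 value and the highest ratio, also had the decidual gene Prl8a2 at 1342 FPKM against 40.2 to 86.0 FPKM in the other labor libraries. The part of decidual tissue in this ratio was not tested.

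**Figure D4:**
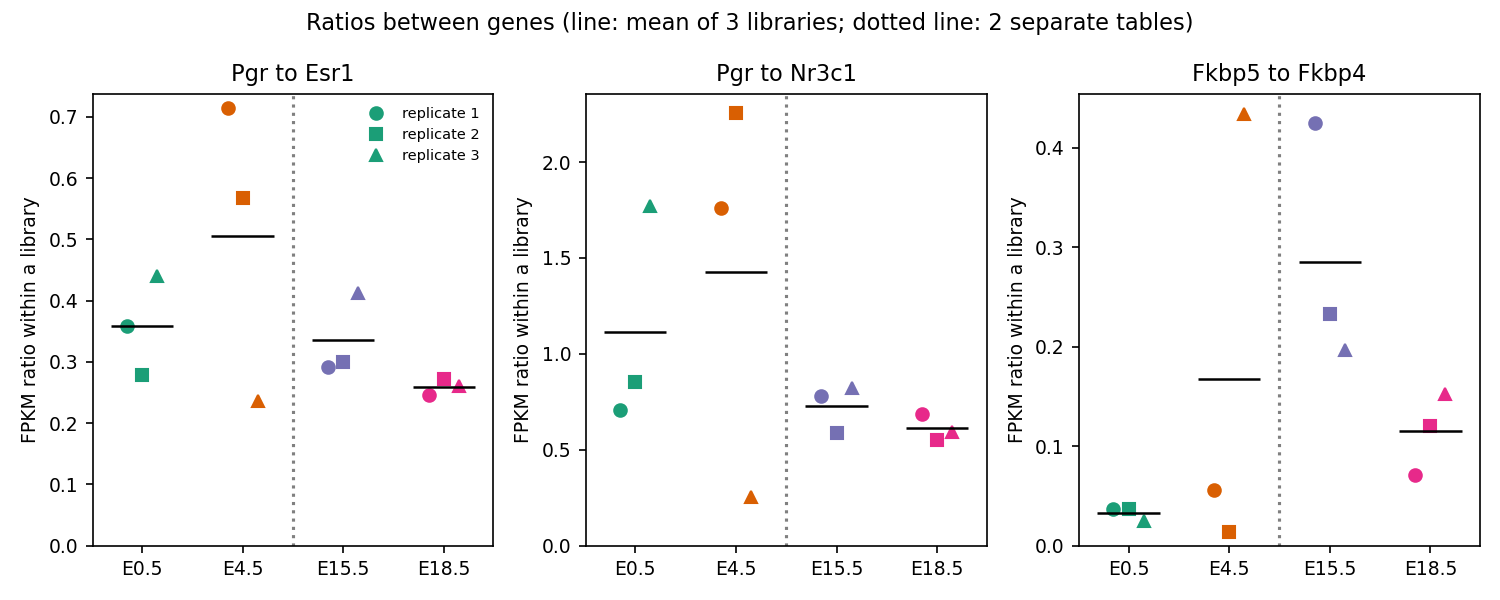
Ratios of FPKM within each library for Pgr to Esr1, Pgr to Nr3c1 and Fkbp5 to Fkbp4, with 1 point per mouse and a line at the mean of 3. E4.5 replicate 3 has the lowest ratio of Pgr to Esr1, at 0.237, and the highest of Fkbp5 to Fkbp4, at 0.434.

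The receptors work with chaperones, coregulators and related receptors, and their own transcripts were read beside the transcripts of these partners and of known target genes. Of 15 chaperones and cochaperones, 13 had lower values at E0.5 than at E4.5, with a median log2 fold change of -0.35 beside -0.03 for all rows. By the criterion 2 of 15 were lower and none higher, against 5.98% and 6.13% of all rows. Stip1, which carries receptors from Hsp70 to Hsp90, had 4.02, 2.41 and 4.41 FPKM at E0.5 against 10.3, 7.56 and 10.7 FPKM at E4.5, a 2.60-fold difference (log2 fold change -1.38, adjusted p = 0.0706, edgeR). Hsp90aa1, the inducible Hsp90, had 15.6, 19.998 and 11.4 FPKM at E0.5 against 49.5, 29.0 and 42.3 FPKM at E4.5 (log2 fold change -1.35, adjusted p = 0.0826, edgeR). The E4.5 values of both genes lay above all E0.5 values, replicate 3 included, and 25.8% of all rows did not overlap. None of the 15 passed the adjusted p of edgeR with all libraries, where 7 had an unadjusted p under 0.05, against 17.6% of all rows, and DESeq2 passed 4, against 10%. When E4.5 replicate 3 was left out the median was -0.31, with log2 fold changes of -1.31 for Stip1 and -1.33 for Hsp90aa1.

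Fkbp4 had 25.7, 22.3 and 21.2 FPKM at E0.5 against 38.2, 39.4 and 28.0 FPKM at E4.5, with no overlap, as in 25.8% of all rows. Its log2 fold change was -0.59 (SE 0.19, adjusted p = 0.187, edgeR), and -0.75 (adjusted p = 0.0283) without E4.5 replicate 3. Fkbp4, Stip1 and Ahsa1, an activator of Hsp90 named here after its values were seen, were the 3 of 15 that passed the adjusted p of edgeR without that library, against 6.86% of all rows, and DESeq2 passed 6, against 15.1%. Of the 15 chaperone genes, 12 had higher values at E18.5 than at E15.5, with a median log2 fold change of 0.25 beside 0.02 for all rows. None of them met the criterion by limma, against 5.6% of all rows, and 1 had an unadjusted p under 0.05, against 12%.

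None of the 18 coregulators met the criterion at either stage, by edgeR, DESeq2 or limma. The criterion was met by 12.1% of all rows by edgeR at the implantation stage and by 5.6% by limma at the labor stage. An unadjusted p under 0.05 was found for 1 of the 18 by edgeR, against 17.6% of all rows, and for 2 by limma, against 12%. The median log2 fold changes were -0.09 between the early days and 0.14 between the late ones. Nrip1, a corepressor that is induced by estrogen and needed for ovulation, had 2.81, 2.85 and 3.53 FPKM at E15.5 against 6.001, 4.44 and 3.82 FPKM at E18.5. The E18.5 values lay above the E15.5 values, as in 10.9% of all tested rows, with a log2 fold change of 0.60 (unadjusted p = 0.0207, adjusted p = 0.315, limma), and of 0.54 (unadjusted p = 0.0513) without E15.5 replicate 1. At the implantation stage the log2 fold change of Nrip1 was 0.13 (adjusted p = 0.868, edgeR), and 0.48 without E4.5 replicate 3.

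Of 10 other receptors of these families, 9 were tested at the implantation stage and 2 were lower at E0.5 by the criterion, against 5.98% of all rows. In the 5 libraries other than E4.5 replicate 3 it was 1 of 9, against 6.52%. Paqr5 and Paqr7 encode membrane progestin receptors. Paqr5 had 2.01, 0.223 and 1.17 FPKM at E0.5 against 7.99, 9.23 and 2.22 FPKM at E4.5 (log2 fold change -2.5, adjusted p = 0.199, edgeR). Its groups did not overlap, as in 25.8% of all rows, and the nearest values were 2.01 FPKM in E0.5 replicate 1 and 2.22 FPKM in E4.5 replicate 3. It was also lower without E4.5 replicate 3 (log2 fold change -2.92, unadjusted p = 0.00539, adjusted p = 0.0650). Paqr7 had 0.662, 0.463 and 0.418 FPKM at E0.5 against 0.814, 0.787 and 9.07 FPKM at E4.5. Its log2 fold change of -2.74 (adjusted p = 0.227, edgeR) came to -0.63 (adjusted p = 0.280) without the library of 9.07 FPKM, E4.5 replicate 3. None of the 8 receptors tested with limma at the labor stage met the criterion, against 5.6% of all rows, and 1 had an unadjusted p under 0.05, against 12%.

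Fkbp5 belongs to a set of genes induced by glucocorticoids and progestins in many tissues, and 9 others of that set were examined. At the implantation stage 8 of the 9 had lower values at E0.5, and 3 met the criterion, Hif3a, Sgk1 and Zbtb16, against 5.98% of all rows in this direction. None passed the adjusted p by edgeR, against 1.4% of all rows, and 5 had an unadjusted p under 0.05, against 17.6%. DESeq2 passed 4, against 10%. Without E4.5 replicate 3, 8 of the 9 had an unadjusted p under 0.05 by edgeR, against 22%. Hif3a, a hypoxia-inducible factor subunit, had 0.345, 0.415 and 0.451 FPKM at E0.5 against 3.16, 3.67 and 0.974 FPKM at E4.5 (log2 fold change -2.67, adjusted p = 0.0601, edgeR). Zbtb16, a zinc finger repressor, had 1.75, 3.01 and 4.57 FPKM at E0.5 against 11.7, 16.8 and 3.24 FPKM at E4.5 (log2 fold change -1.74, adjusted p = 0.224, edgeR). Both were lowest of E4.5 in replicate 3, where Fkbp5 was highest.

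The kinase gene Sgk1, like Fkbp5, was highest in E4.5 replicate 3, with 49.5 FPKM against 13.9 and 15.46 FPKM in replicates 1 and 2 and 6.01 to 11.4 FPKM at E0.5 (log2 fold change -1.71, adjusted p = 0.175, edgeR). Without that library Hif3a (log2 fold change -3.07, adjusted p = 0.00130), Zbtb16 (log2 fold change -2.18, adjusted p = 0.0220) and the glucocorticoid-induced leucine zipper gene Tsc22d3 (log2 fold change -1.09, adjusted p = 0.212) met the criterion, against 6.52% of all rows in this direction, and Sgk1 did not (log2 fold change -0.90, unadjusted p = 0.0180). Hif3a, Zbtb16 and the clock gene Per1 (log2 fold change -0.84, adjusted p = 0.0220) passed the adjusted p there, against 3.47% of all rows in this direction, and Per1 was named after its values were seen. Later the signs were mixed, with 4 of 9 higher at E18.5 and 5 lower. The phosphatase gene Dusp1, an early response gene, was the 1 of 9 that met the criterion, against 2.89% of all rows in this direction, with 3.14, 5.86 and 5.72 FPKM at E15.5 against 11.2, 11.7 and 12.5 FPKM at E18.5 (log2 fold change 1.3, unadjusted p = 0.00112, adjusted p = 0.144, limma), and its log2 fold change was 1.01 without E15.5 replicate 1. Fkbp5 had its lower values at E18.5, the day on which Dusp1 was higher.

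Uterine targets of the progesterone receptor were mostly lower at E0.5. Of 12 tested targets of 13, 8 were lower at E0.5 by the criterion and 5 by the adjusted p, with a median log2 fold change of -2.68 beside -0.03 for all rows. In this direction 5.98% of all rows met the criterion and 0.569% reached an adjusted p of 0.05. Without E4.5 replicate 3, 9 of 12 were lower by both rules, against 6.52% and 3.47% of all rows, with a median of -3.12. Both medians were the same with the 2 genes without reads at E0.5 placed at their bounds. The retinoic acid-degrading enzyme gene Cyp26a1 had 0.425, 0.199 and 0.303 FPKM at E0.5 against 72.6, 85.0 and 10.3 FPKM at E4.5 (log2 fold change -7.47, adjusted p = 0.0254, edgeR). The activin inhibitor gene Fst had 0.963, 0.799 and 0.693 FPKM at E0.5 against 7.94, 9.46 and 16.2 FPKM at E4.5 (log2 fold change -3.73, adjusted p = 0.0124, edgeR). Bmp2, a growth factor of the decidual reaction (log2 fold change -3.42, adjusted p = 0.0176, edgeR), and Ihh, the epithelial hedgehog signal (log2 fold change -2.55, adjusted p = 0.0425, edgeR), were lower at E0.5 as well. In the other 5 libraries the log2 fold changes were -7.97 for Cyp26a1, -3.39 for Fst, -3.64 for Bmp2 and -2.26 for Ihh.

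Hand2, the stromal factor that restrains estrogen signals, had 1.67, 1.78 and 2.75 FPKM at E0.5 against 22.03, 20.6 and 1.13 FPKM at E4.5. Like Pgr, it was higher in replicates 1 and 2 of E4.5 and lowest in replicate 3, and its log2 fold change was -2.81 with that library and -3.36 without it. Il13ra2 had no reads at E0.5 and 4605, 5508 and 518 reads at E4.5, so it was at least 3504-fold lower at E0.5 against a floor of 3 reads over the group, and at least 4949-fold lower without E4.5 replicate 3. Of the 12 targets tested at the labor stage, 2 met the criterion, 1 in each direction, against 2.89% of all rows as higher and 2.71% as lower. Areg, an epidermal growth factor ligand, was listed at 0 in all 3 E15.5 libraries and had 0.270, 0.798 and 0.0224 FPKM at E18.5, and Calca, the calcitonin gene, was lower at E18.5 (log2 fold change -1.12, unadjusted p = 0.0394, adjusted p = 0.390, limma). Neither met the criterion without E15.5 replicate 1, with log2 fold changes of 1.78 for Areg (unadjusted p = 0.0849) and -0.96 for Calca.

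Estrogen receptor targets went both ways before implantation. Between E0.5 and E4.5, 4 of 10 were higher and 5 lower at E0.5 by the criterion, against 6.13% and 5.98% of all rows. By the adjusted p of edgeR 4 were higher and 2 lower, against 0.832% and 0.569%. Without E4.5 replicate 3, 4 were higher and 5 lower by the adjusted p, against 6.86% of all rows in both directions together. The 4 higher genes encode secreted or surface proteins of the epithelium. Lcn2 had 308 to 321 FPKM at E0.5 against 1.22 to 2.23 FPKM at E4.5 (log2 fold change 7.40, adjusted p = 0.00396, edgeR). Ltf, lactoferrin, had 347 to 537 FPKM at E0.5 against 2.99 to 20.02 FPKM at E4.5 (log2 fold change 5.63, adjusted p = 0.0327, edgeR). C3 and Muc1 were higher at E0.5 too, with log2 fold changes of 4.02 and 4.35 (adjusted p = 0.00457 and 0.0257, edgeR). The epithelium markers summed to 226 to 270 FPKM at E0.5 against 77.3 to 166 FPKM at E4.5, and their part in these differences was not tested. Leaving out E4.5 replicate 3 gave log2 fold changes of 7.51 for Lcn2, 6.80 for Ltf, 3.92 for C3 and 3.96 for Muc1.

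The lower genes included the growth factor gene Igf1 (log2 fold change -2.26, adjusted p = 0.0428, edgeR) and 2 genes of dividing cells, Mcm2 (log2 fold change -1.61, adjusted p = 0.0235) and Mki67 (log2 fold change -1.98, adjusted p = 0.0572). Wnt7b, an epithelial Wnt ligand, was lower at E0.5 as well (log2 fold change -2.61, adjusted p = 0.0934, edgeR). With E4.5 replicate 3 left out the log2 fold changes were -2.58 for Igf1, -1.66 for Mcm2, -2.09 for Mki67 and -3.05 for Wnt7b. At the labor stage Wnt7b, Ltf and Muc1 were higher at E18.5 by the criterion, which 2.89% of all rows met in this direction, with log2 fold changes of 2.5, 2.77 and 1.91 (adjusted p = 0.144, 0.168 and 0.254, limma), and of 2.25, 2.05 and 1.37 without E15.5 replicate 1. Wnt7b thus had opposite signs at the 2 stages. Its 2 day effects differed by -4.76 on the log2 scale (adjusted p = 0.0158, limma on log2(FPKM + 0.1) at both stages), where 2.7% of tested rows passed. Wnt7b was picked for its opposite calls in these libraries, so this test is no separate support. No other target of the list met the criterion at the labor stage.

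**Figure D5:**
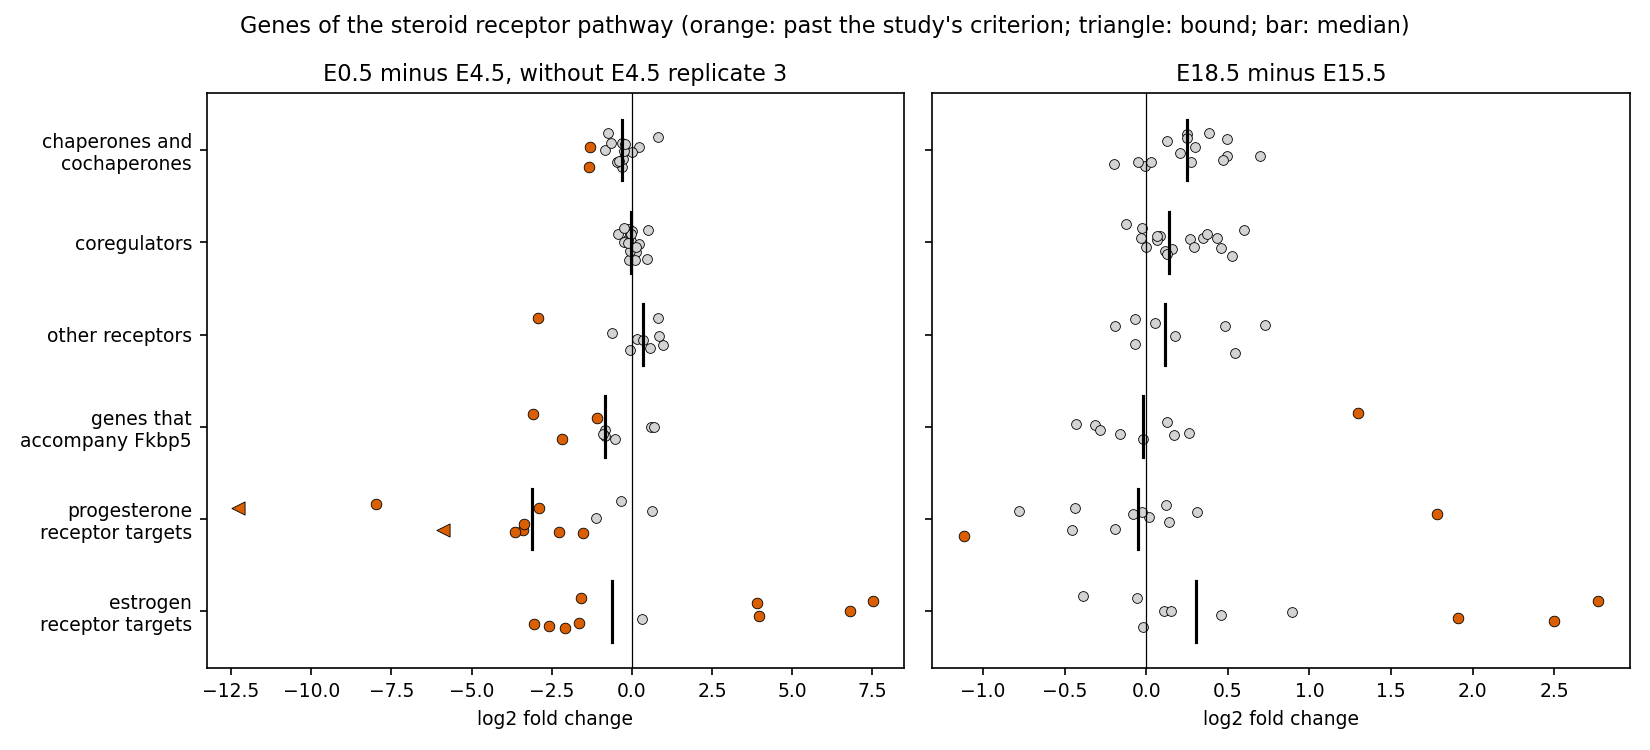
Log2 fold change of each gene in 6 lists of genes around the receptors, for E0.5 minus E4.5 without E4.5 replicate 3 and for E18.5 minus E15.5, with orange for genes past the study's criterion and a bar at the median of each list. Triangles are bounds for Il13ra2 and Areg, which had no reads at E0.5, and the 2 panels have different x axes.

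The rows whose levels were most like those of Pgr, Esr1 and Fkbp5 were sought among 10549 protein-coding rows that averaged 1 FPKM or more in both tables, by Pearson's r over the 12 libraries after centring within each table. The closest to Pgr were Hhipl1 (r = 0.954), a merged row that holds Ctla2a and Ctla2b (r = 0.954) and Pabpc1 (r = 0.951). The closest to Esr1 were Fxyd3 (r = 0.950), Pim1 (r = 0.949) and Slc8a1 (r = 0.948), and to Fkbp5 Trim35 (r = 0.975), Lonp1 (r = 0.974) and Sema3g (r = 0.965). These values describe libraries that share a table and a day, and E4.5 replicate 3 weighs heavily in them. Without it the closest were Msto1, Ap2m1 and Hagh to Pgr, Mob4, Rbbp4 and Klhl7 to Esr1, and Lrrc8b, Kbtbd11 and Lonp1 to Fkbp5, so that only Lonp1, which encodes a mitochondrial protease, was in both sets for its gene.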

How the data were processed

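RNA-seq was performed by the authors on the whole uteri of 12 ICR mice, 3 per day. The methods name rRNA depletion, whereas the labels describe poly(A) selection. Reads were trimmed, aligned and assembled by the authors (Bowtie2, Tophat2, StringTie and Ballgown in the methods, and Bowtie 0.12.2, HISAT2 2.0 and StringTie 1.3.0 in the submitters' processing notes), and strandedness is not given in the sources used here. The FPKM values of both stages were deposited by the authors, as was a read count per row for the implantation stage only. A value of 0.0001 there stands for an FPKM of 0 and was set back to 0. No sample's value column was left unused. Positions are those of the implantation table, whose rows overlap the RefSeq genes of the same names in GRCm38.p6.

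Counts of the implantation stage were compared with edgeR 4.0.16 (TMM scaling and the quasi-likelihood test). For the labor stage, log2(FPKM + 0.1) was compared with limma 3.58.1 and its trend option. Both ran in R 4.3.3 on rows averaging 0.1 FPKM or more, and p-values were adjusted by Benjamini-Hochberg over all rows tested in a comparison. The stage difference was fitted with limma over rows paired by shared Ensembl transcripts. DESeq2 1.42.0 was an alternative, and others were the filter, the scaling, the pseudocount, a block for replicate numbers, and leaving out each library in turn. Rows without a gene name, with 1.02% to 1.86% of the counts, were left out. The tests were run first on simulated data, which had no outlying library. These runs do not cover a library such as E4.5 replicate 3. Replicates were separate mice.

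The 9 genes, the 6 pathway lists and the 11 marker lists were chosen with earlier results of these data known. From each pathway list, genes past the criterion were named, at most 4 per direction by smallest p, plus Fkbp4 and Nrip1, and 1 further gene of the rule is not reported here. Markers of fat, macrophages, erythroid cells and the adrenal gland summed to 7.17 to 225, 17.7 to 107, 63.6 to 1676 and 0.0801 to 20.1 FPKM per library, those of stroma to 222 to 2255, of decidua to 27.7 to 1639 and of neutrophils, mostly Ltf, to 3.84 to 537.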

Additional observations from a re-analysis of the deposited data

Results flagged for a closer look

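The implantation table holds further rows that carry the name of a member but no Ensembl transcript, which were outside the comparisons above. They are assembled transcripts near or within the genes, and their reads, summed over the 6 libraries, exceeded the 3 reads that a count of 0 allows. For Esr1 there were 9 such rows with 297354 reads, or 62.5% of the reads of the gene's own row, present in every library. For Pgr there was 1 row with 11611 reads, between 557 reads in E4.5 replicate 3 and 4438 in E4.5 replicate 2. For Nr3c2 there were 34 rows with 6856 reads, or 244% of the reads of the gene's row, all listed without a strand. For Esr2 there was 1 row with 4846 reads, of which 4784 were in E4.5 replicate 3, the library with ovary markers. For Fkbp5 there were 2 rows with 972 reads, of which 649 were in that library, and for Nr3c1 1 row with 98 reads. The labor table, which gives no counts, holds 7 such rows for Esr1, 1 for Nr3c1 and 11 for Nr3c2, also not added. Whether any of these rows belong to the receptor transcripts was not tested.

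Of the genes among the 9 and the 6 pathway lists that met the criterion at both stages, 2 had opposite signs and different day effects. The difference itself was tested by limma on log2(FPKM + 0.1), where 2.7% of the 21397 tested rows passed the adjusted p. The 2 genes were picked for opposite calls in these same libraries, so that test is no separate support for them. Wnt7b had a difference of -4.76 (95% interval -6.59 to -2.94, adjusted p = 0.0158), and -5.51 without E4.5 replicate 3. Areg had a difference of -4.27 (95% interval -6.19 to -2.35, adjusted p = 0.0294), and -4.46 without that library. It was listed at 0 in all libraries of E0.5 and E15.5, so that its value depends on the pseudocount. Without E15.5 replicate 1 Areg did not meet the criterion at the labor stage.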

How the results depend on the processing

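With a library left out, 0 to 2 members met the criterion. Without E4.5 replicate 3 it was 0, and Fkbp5 came to -0.85 on the log2 scale and, with no filter, Esr2 to -0.03. Without any 1 E0.5 library it was also 0, but the log2 fold changes stayed between -2.81 and -2.45 for Fkbp5 and between -8.19 and -7.46 for Esr2, and only the p moved past 0.05. The count of 2 became 1 with DESeq2, and 0 with limma on FPKM, with the replicate block, with DESeq2 without E4.5 replicate 3 and with no filter without that library. The pairs of choices without that library, the pathway genes without E15.5 replicate 1, and the rows without a gene name, were chosen after seeing the data. At the labor stage the count was 0 under all alternatives run.

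Over all rows, 4024 met the criterion at the implantation stage with a minimum of 1 FPKM. The 739 rows past the adjusted p became 5297 with DESeq2, 1172 with that minimum, 7764 with DESeq2 without E4.5 replicate 3, 3631 with no filter without that library, and 0 to 3534 with a library left out (3534 without E4.5 replicate 3). At the labor stage 442 rows met the criterion with a pseudocount of 1 and 711 with a minimum of 1 FPKM. The 13 rows past the adjusted p there became 7 and 6 with pseudocounts of 1 and 0.01, 23 without trend, 6 with no filter, 3 with a minimum of 1 FPKM, 8 with rows without a gene name, and 2 to 35 with a library left out (35 without E15.5 replicate 1).

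The replicate numbers are not stated to pair mice, and same-numbered libraries did not deviate together (correlations -0.07, 0.02 and -0.07 in the implantation table, then 0.01, 0 and -0.03 in the labor table). With the replicate block the rows past the adjusted p fell to 0 for E0.5 against E4.5 and to 4 for E18.5 against E15.5, and those of the stage difference from 577 to 69. It gave Fkbp5 -1.60 and Esr2 -2.44, both past no threshold, and no other member had a call to lose.

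Small effects changed sign. With upper quartile factors Nr3c1 was 0.044 at the implantation stage, with quantile normalization Pgrmc1 was 0.073 at the labor stage, and with a pseudocount of 1 the stage difference was -0.025 for Pgr and 0.078 for Gper1. Esr1 was -0.10 with DESeq2 and -0.11 with no filter, both without E4.5 replicate 3. With a library left out, the implantation effects ran from -0.11 to 0.57 for Esr1, -0.15 to 0.073 for Nr3c1 and -0.055 to 0.49 for Nr3c2. The labor effects ran from -0.22 to 0.011 for Pgr and -0.15 to 0.070 for Pgrmc1. The stage differences ran from -0.36 to 0.43 for Esr1, -2.06 to 0.057 for Fkbp5, -0.34 to 0.31 for Gper1 and -0.85 to 0.53 for Pgr. The causes were not tested. Esr2 lies too near 0 outside E4.5 replicate 3 for a comparison at this depth.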
